A study of Mus with 6 samples.

Results

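A total of 10 transcription factor genes tied to T cell quiescence were followed in activated CD4+ T cells. They were taken by symbol from a list written with earlier results of these data known, and all 10 were found among the 10995 genes of the table. They are the Krüppel-like factor genes Klf2, Klf3, Klf6, Klf10 and Klf13, the forkhead genes Foxo1, Foxo3 and Foxp1, and the high mobility group genes Tcf7 and Lef1. Naive CD4+ T cells from the spleen of wild-type (WT) mice were stimulated for 3 days through CD3 (antibody at 5 μg/mL) and CD28 (antibody at 2 μg/mL) in the presence of 100 U/mL IL-2. The cells received either a goat antibody that neutralizes VEGF-B or normal goat IgG, each used at 1 μg/mL for 3 days. Each treatment was sequenced as 3 RNA-Seq libraries. The methods of the paper place this antibody together with the stimulation, while its results text places the stimulation first. The labels give no age or sex of the mice and do not say whether the 3 libraries of a treatment came from separate mice or cultures, so p-values may measure technical spread only. The purpose of the comparison was to learn how neutralizing VEGF-B alters the transcriptome of activated T cells.

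Naive T cells are held in a resting, recirculating state by a small set of transcription factors. FOXO1 activates the genes of KLF2 and of the IL-7 receptor, and KLF2 in turn activates the gene of S1PR1, the receptor through which T cells leave lymphoid organs. Signals from the T cell receptor and CD28 act through PI3K and AKT to phosphorylate FOXO1 and FOXO3, which are then exported from the nucleus, so that the activity of these factors is set on the protein as well as on the RNA. TCF-1, the product of Tcf7, and LEF-1 bind the same DNA motif, maintain naive and memory programs, and are lowered as effector cells differentiate. None of the values below measures protein, phosphorylation or binding to DNA.

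Levels are given as FPKM, reads scaled to the length of the transcript and the size of the library, and differences as the log2 fold change of FPKM + 1 between anti–VEGF-B and IgG. The table names no unit, and FPKM was inferred from its values and the software named in the methods. Genes averaging 1 FPKM or more (8816) were tested in limma, with Benjamini-Hochberg adjustment over all of them, and genes with an adjusted p under 0.05 were called. Klf3, with a mean under 1 FPKM, is given from the fit of all 10995 genes. The libraries did not share a common center. The median log2 fold change of all tested genes was -0.15, and the median log2 value of a library ran from 2.69 to 2.74 with anti–VEGF-B and was 2.85, 3.02 and 2.89 with IgG. Between-library scaling moved the median of all genes to 0.0077 (quantile normalization), 0.0019 (cyclic loess), 0.049 (median centring) or -0.096 (scaling to Actb). Replicate 2 of IgG, at 3.02, thus stood furthest from the anti–VEGF-B libraries. The depth of each library is unknown. As markers of the labeled cell type, Cd4 (68.4 ± 5.56 FPKM with IgG, against 70.0 ± 4.56 with anti–VEGF-B, SD, n = 3 each) and Cd3d (103 ± 2.92 and 110.4 ± 8.81) were high in both groups. Of the 10 T cell markers tested, 3 were called lower (Thy1, Cd3e and Cd5) and 0 higher, beside 23.8% and 4.87% of all tested genes. After median centring 1 of the 10 was lower and 2 higher (807 and 1365 of all 8816 tested genes). Quantile normalization kept 3 lower and 0 higher (913 and 880 of all tested genes). The counts of markers were the same with cyclic loess (938 and 852 of all tested genes). The median log2 fold change of the 10 markers was -0.11 under each of these 2 scalings. With Actb as the reference, 2 markers were lower and 0 higher (1309 and 365 of all tested genes). Cd8a averaged 0.0493 FPKM in IgG libraries and 0.0947 in anti–VEGF-B libraries. The 1 B cell marker analysed, Cd79b, was at most 1.34 FPKM in any library, and the summed FPKM of 6 myeloid markers lay between 13.3 and 15.2 in 5 libraries and was 37.5 in IgG replicate 3. Gzma, the 1 NK cell marker analysed, was at 5.60 to 7.55 FPKM in anti–VEGF-B libraries and 7.78 to 9.86 in IgG libraries. The part of these markers in the results was not tested. The members' calls were the same without IgG replicate 3, a fit that bears on that library only.

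The 10 genes did not move in one direction. Foxo1 and Klf13 were higher with anti–VEGF-B, while Klf10, Tcf7 and Lef1, and in the fit of all genes Klf3, were lower. Klf2, Klf6, Foxo3 and Foxp1 did not pass the test. In RNA from bulk cells, fewer cells of a type and less RNA per cell cannot be told apart. Of the 9 members tested, 3 (33.3%) were called lower, where 23.8% of all tested genes were, and 2 (22.2%) were called higher, where 4.87% were. The 3 anti–VEGF-B values lay under the 3 IgG values for 3 of the 9 members, against 38.5% of all tested genes, and above them for another 3, against 10.5%. The median log2 fold change of the 9 was -0.077 (0.12 after median centring, where all genes had 0.049), and 6 of them lay above the median of all tested genes. With so few members, these shares are a description and not a result about the list.

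**Figure D1:**
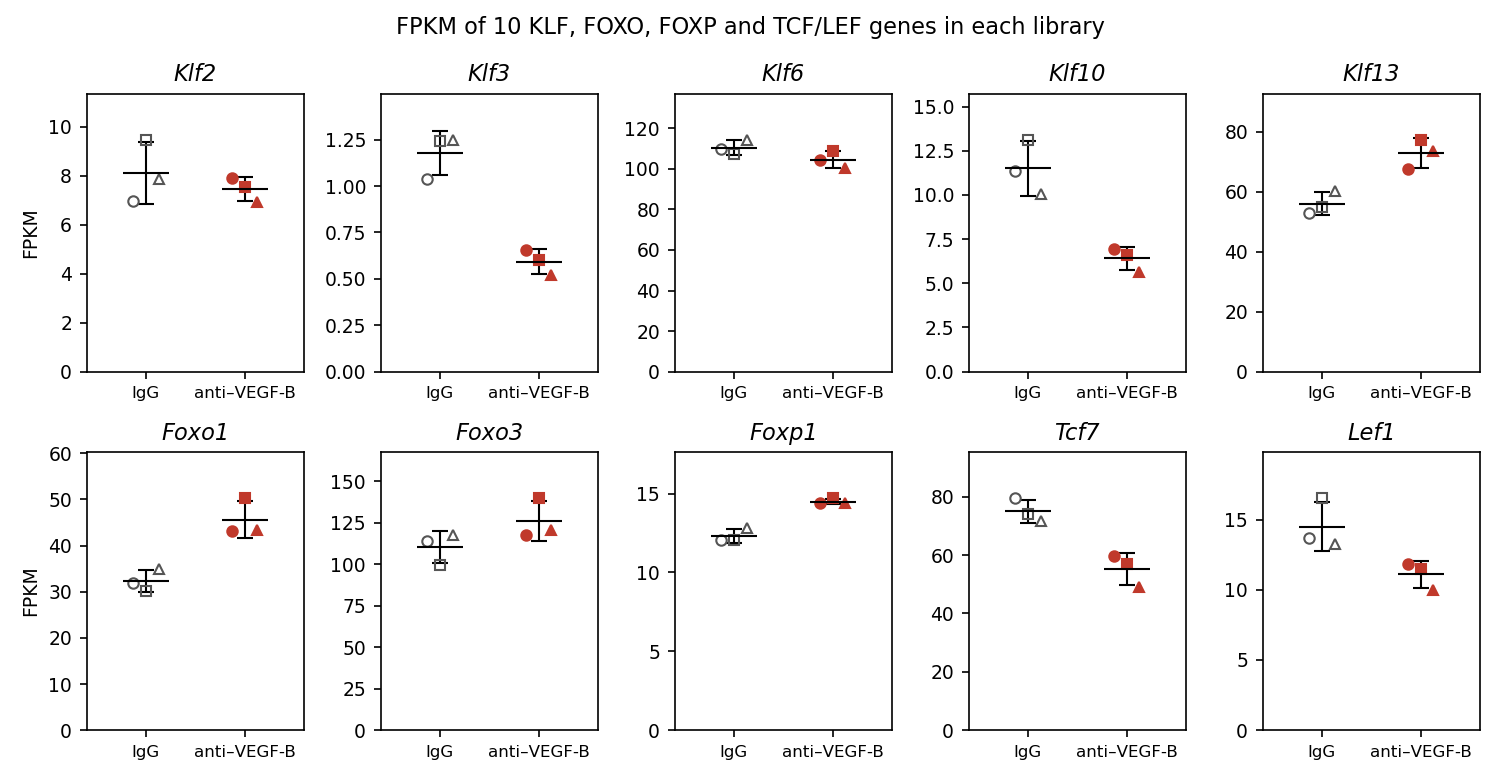
FPKM of each gene (vertical axes, linear from 0, one scale per gene) in the 3 IgG libraries (open symbols) and the 3 anti–VEGF-B libraries (filled symbols); circles, squares and triangles are replicates 1, 2 and 3, and bars give the mean and SD. The groups are apart for Klf3, Klf10, Klf13, Foxo1, Foxp1, Tcf7 and Lef1 and overlap for Klf2, Klf6 and Foxo3.

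Foxo1 (chromosome 3 of GRCm38, 52268336 to 52353221, plus strand) showed the largest rise of the 10 genes on the log2 scale. It reached 43.1, 50.2 and 43.5 FPKM with anti–VEGF-B, against 31.8, 30.2 and 35.0 FPKM with IgG. All anti–VEGF-B values thus lay above all IgG values. The mean was 45.6 ± 4.02 against 32.3 ± 2.45 FPKM (SD, n = 3 each), or 1.41 times the IgG mean. Foxo1 had a log2 fold change of 0.48 (SE 0.089, 95% CI 0.28 to 0.68, limma adjusted p = 0.00875), which 98.3% of tested genes fell short of. It was not called where a log2 fold change beyond 0.5 was required. At an adjusted p under 0.05 it was called under every alternative run other than the fit with no moderation of the variance (limma adjusted p = 0.0736, with a range of 0.00580 to 0.0736 across alternatives).

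Foxo3 (chromosome 10, 42181841 to 42276755, minus strand) was the most abundant of the 10 genes in both groups, although in the IgG libraries its values overlapped those of Klf6. It had 118, 139.8 and 120.5 FPKM with anti–VEGF-B, against 114, 99.5 and 118 with IgG. The groups overlapped, as the highest IgG library passed the lowest anti–VEGF-B library. Its log2 fold change was 0.19 (standard error 0.095, 95% CI -0.027 to 0.40, limma adjusted p = 0.160). It passed only after median centring, at 0.39 (limma adjusted p = 0.0452, with a range of 0.0452 to 0.414 across alternatives).

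The third forkhead gene, Foxp1 (chromosome 6, 98925338 to 99522721, minus strand), encodes a repressor that keeps naive T cells quiescent and opposes FOXO1 at the IL-7 receptor gene. Its FPKM of 14.4, 14.7 and 14.4 with anti–VEGF-B lay above the 12.03, 12.1 and 12.8 with IgG. The means were 14.5 ± 0.177 and 12.3 ± 0.456 (SD, n = 3 each). The log2 fold change of 0.22 (standard error 0.076, 95% CI 0.048 to 0.39) did not pass the test (limma adjusted p = 0.0576). After quantile normalization (0.35), cyclic loess (0.34) and median centring (0.42) the gene was called, with an adjusted p of 0.0107 to 0.0215 from limma, against 0.0107 to 0.143 over all alternatives. RefSeq lists 41 transcripts for Foxp1, counting predicted ones, and a value per gene does not tell its isoforms apart.

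Within a library the ratio of 2 genes does not change when all FPKM of the library are multiplied by a single factor, though quantile normalization and cyclic loess can change it. The log2 ratio of Foxo1 to Foxo3 was -1.45, -1.48 and -1.47 with anti–VEGF-B and -1.85, -1.72 and -1.75 with IgG. Foxo1 was thus higher relative to Foxo3 in every anti–VEGF-B library, by 0.31 on the log2 scale. The two-sided exact permutation test gave p = 0.1 (0.167 adjusted over 5 pairs of genes), and 0.1 is the smallest p that 3 against 3 allow. Foxo4 made up the rest of the FOXO genes analysed and fell from 7.59 ± 0.972 to 4.92 ± 0.241 FPKM (-0.53 on the log2 scale, limma adjusted p = 0.0104). Of the summed FPKM of the 3 genes, Foxo1 made up 26.0%, 25.7% and 25.8% with anti–VEGF-B and 20.8%, 21.8% and 21.9% with IgG. The share of Foxo4 was 2.94%, 2.65% and 2.79% against 4.53%, 6.29% and 4.47%. These shares were computed after the values had been seen.

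**Figure D2:**
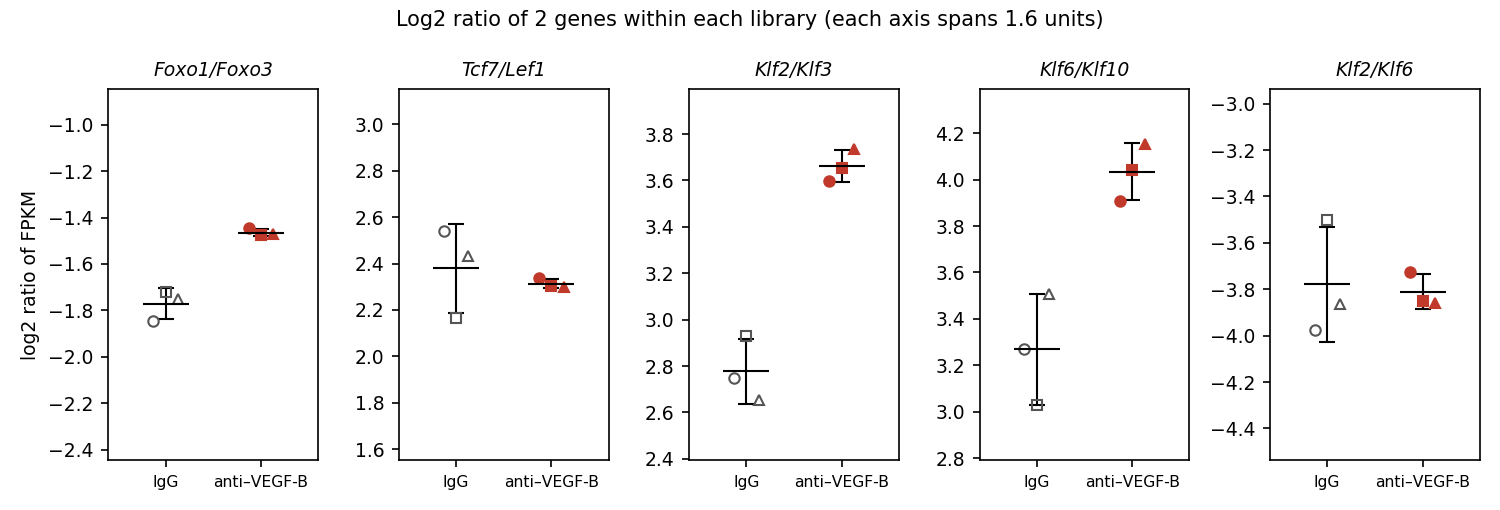
Log2 ratio of the FPKM of 2 genes within each library (vertical axes, each spanning the same number of log2 units around the data and not starting at 0), for IgG (open) and anti–VEGF-B (filled) libraries, with mean and SD; circles, squares and triangles are replicates 1, 2 and 3. The groups are apart for Foxo1/Foxo3, Klf2/Klf3 and Klf6/Klf10 and overlap for Tcf7/Lef1 and Klf2/Klf6.

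Klf2 (chromosome 8, 72319033 to 72321656, plus strand), the KLF gene most closely tied to naive T cell trafficking, did not pass the test. It had 7.90, 7.56 and 6.93 FPKM with anti–VEGF-B, against 6.97, 9.47 and 7.86 with IgG. The lowest and the highest IgG library enclosed almost the whole range of the anti–VEGF-B libraries. Its log2 fold change was -0.097 (standard error 0.12, 95% CI -0.36 to 0.16, limma adjusted p = 0.538). The sign depended on the scaling and on 1 library, being positive after quantile normalization (0.076), cyclic loess (0.070) and median centring (0.10) and 0.0081 without IgG replicate 2. None of these fits called it. The interval leaves out a rise of the size measured for Foxo1.

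Klf3 (chromosome 5, 64803388 to 64832901, plus strand), which encodes a repressor that recruits CtBP, was the least abundant member. At 0.653, 0.601 and 0.521 FPKM with anti–VEGF-B, against 1.04, 1.24 and 1.25 with IgG, the groups did not overlap. The mean fell from 1.18 ± 0.119 to 0.592 ± 0.0666 FPKM (SD, n = 3 each), or 0.503 of the IgG mean. In the fit of all genes Klf3 changed by -0.45 on the log2 scale (SE 0.087, limma adjusted p = 0.0136), and the pseudocount of 1 made it smaller than the change in FPKM. With a pseudocount of 0.1 it was -0.88 (limma adjusted p = 0.0159). The call was lost after median centring (adjusted p = 0.0737), without anti–VEGF-B replicate 3 (0.0602) and with no moderation (0.0754), out of 0.0159 to 0.0754 over the alternatives in limma. The log2 ratio of Klf2 to Klf3 was 3.60, 3.65 and 3.73 with anti–VEGF-B and 2.75, 2.93 and 2.65 with IgG, a difference of 0.88 (two-sided exact permutation test, p = 0.1, 0.167 adjusted over 5 pairs). The counting error of Klf3, at 0.521 to 1.25 FPKM, is unknown, and RefSeq places another protein-coding gene model and a noncoding one across its locus.

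Klf6 (chromosome 13, 5861482 to 5870394, plus strand) is a broadly expressed activator and was the second most abundant member. Its FPKM of 104, 109 and 101 with anti–VEGF-B overlapped the 109.6, 107 and 114 with IgG. It had a log2 fold change of -0.077 (standard error 0.069, 95% CI -0.23 to 0.079, limma adjusted p = 0.415), and 0.12 after median centring. With FPKM as deposited, changes beyond this interval, which is the narrowest of the 10 genes, were not detected. The value after median centring lay outside it.

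Klf10 (chromosome 15, 38291463 to 38300706, minus strand) was first known as an early gene induced by TGF-β and able to restrain cell growth. It had the largest fall of the 10 genes on the scale of log2(FPKM + 1). As a ratio of means the fall of Klf3 was larger (0.503 of its IgG mean). Klf10 was at 6.95, 6.61 and 5.65 FPKM with anti–VEGF-B, against 11.3, 13.1 and 10.0 with IgG. The groups were far apart, at 6.40 ± 0.673 against 11.5 ± 1.54 FPKM (SD, n = 3 each), and the anti–VEGF-B mean was 0.557 of the IgG mean. On the log2 scale Klf10 changed by -0.75 (standard error 0.12, 95% CI -1.01 to -0.49, limma adjusted p = 0.00574), and 2.78% of tested genes had a lower value. It fell under every scaling run, by 0.55 to 0.69 on the log2 scale. Without IgG replicate 2 it was -0.66, and the adjusted p from limma ran from 0.00456 to 0.0703 over the alternatives, the last with no moderation. Relative to Klf6 in the same library, Klf10 was lower in each of the anti–VEGF-B libraries. The log2 ratio of Klf6 to Klf10 was 3.91, 4.04 and 4.15 with anti–VEGF-B and 3.27, 3.03 and 3.51 with IgG, a difference of 0.76 (two-sided exact permutation test, p = 0.1, 0.167 adjusted over 5 pairs).

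Klf13 (chromosome 7, 63886351 to 63938915, minus strand) encodes an activator of the chemokine gene Ccl5 late in T cell activation and rose. The FPKM were 67.5, 77.3 and 73.6 with anti–VEGF-B and 52.8, 55.0 and 60.4 with IgG. No IgG library reached the lowest anti–VEGF-B library. The mean was 72.8 ± 4.95 against 56.0 ± 3.90 FPKM (SD, n = 3 each), and the log2 fold change was 0.37 (standard error 0.082, 95% CI 0.19 to 0.56, limma adjusted p = 0.0139). Without anti–VEGF-B replicate 3 the adjusted p was 0.0521, and with no moderation 0.0808, out of 0.00680 to 0.0808 over the alternatives in limma. In RefSeq the locus also holds another protein-coding model and a noncoding one. The use of strand in counting is not given in the sources used here, so reads of overlapping genes may enter the values of Klf3, Klf10, Klf13, Foxo3 and Foxp1.

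The summed FPKM of 13 KLF genes, a sum formed after the values had been seen, was 274, 292 and 272 with anti–VEGF-B and 269, 273 and 283 with IgG, so that the groups overlapped. Its makeup differed more than its total. Klf13 made up 24.6%, 26.5% and 27.1% of the sum with anti–VEGF-B and 19.6%, 20.1% and 21.3% with IgG. Klf6 was the largest part in both groups, at 37.5% ± 0.555 against 40.1% ± 0.833, and Klf10 made up 2.29% ± 0.229 against 4.19% ± 0.624 (SD, n = 3 each). Since shares of a sum are bound to each other, they carry no test.

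Tcf7 (chromosome 11, 52252371 to 52283014, minus strand) fell. Its FPKM were 59.6, 56.8 and 49.0 with anti–VEGF-B and 79.5, 74.1 and 71.8 with IgG. The groups were apart, with means of 55.2 ± 5.50 and 75.1 ± 3.94 FPKM (SD, n = 3 each). Tcf7 changed by -0.44 on the log2 scale (SE 0.089, 95% CI -0.64 to -0.24, limma adjusted p = 0.0106), or -0.29 once the median of all tested genes was taken off. After median centring it was -0.24 and no longer called (limma adjusted p = 0.104), nor was it with no moderation (0.0799), whereas quantile normalization left it at -0.45 (limma adjusted p = 0.0105, with a range of 0.00944 to 0.104 across alternatives).

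Lef1 (chromosome 3, 131110471 to 131224356, plus strand) was less abundant than Tcf7 and also fell, with less certainty. Its levels were 11.8, 11.5 and 9.96 FPKM with anti–VEGF-B, against 13.7, 16.5 and 13.3 with IgG. The groups did not overlap, but IgG replicate 2 stood above the other IgG libraries. Lef1 had a log2 fold change of -0.35 (standard error 0.11, 95% CI -0.59 to -0.12, limma adjusted p = 0.0362). When IgG replicate 2 was left out, Lef1 had -0.26 (limma adjusted p = 0.102), and the call was also lost without anti–VEGF-B replicate 1 (0.0550), 2 (0.0638) or 3 (0.128), under all 4 other scalings and with no moderation, with 0.0288 to 0.206 over the alternatives. The log2 ratio of Tcf7 to Lef1 was 2.34, 2.30 and 2.30 with anti–VEGF-B and 2.54, 2.17 and 2.43 with IgG. The anti–VEGF-B values lay within the IgG range, and no difference between the 2 genes was detected (-0.066, two-sided exact permutation test, p = 0.7, 0.875 adjusted over 5 pairs).

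**Figure D3:**
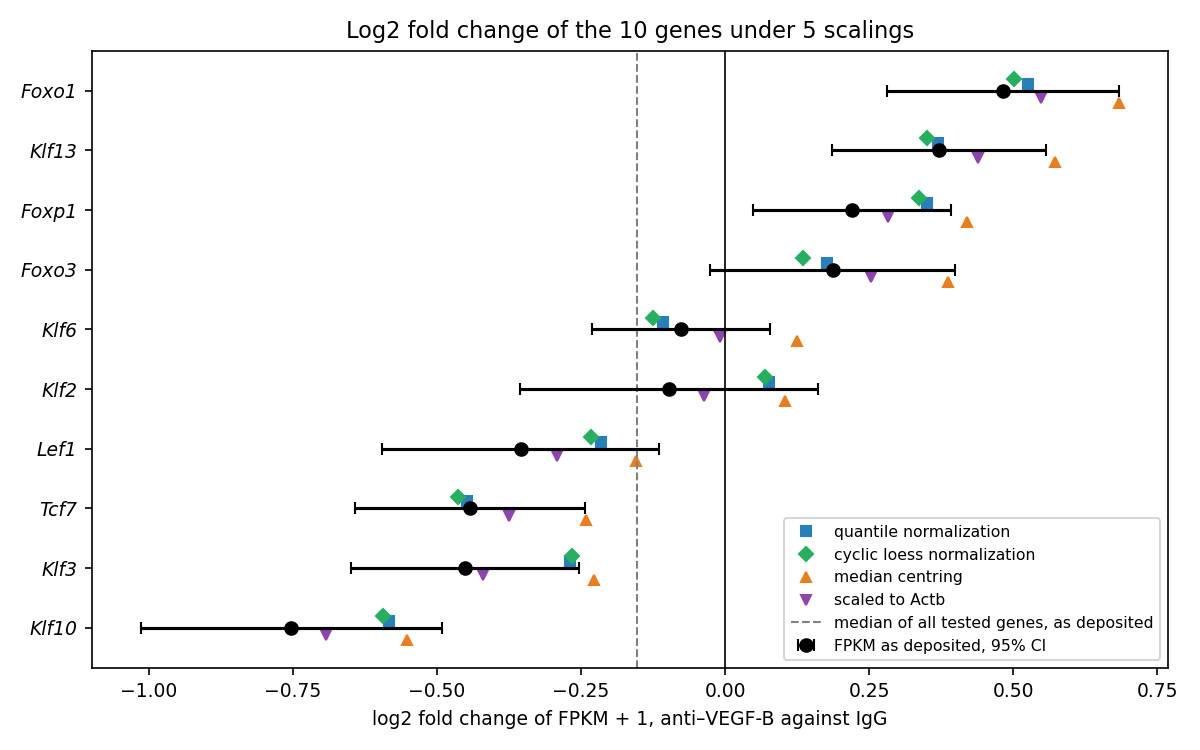
Log2 fold change of FPKM + 1 between anti–VEGF-B and IgG (horizontal axis) for each gene, with 95% CI for the values as deposited and without an interval for 4 other scalings between libraries; the dashed line is the median of all tested genes, -0.15. Klf10, Klf3, Tcf7 and Lef1 lie below 0 and Foxo1, Klf13, Foxp1 and Foxo3 above 0 under all 5 scalings, while Klf2 and Klf6 change sign.

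By level, which FPKM allow to be compared between genes, the members spanned a wide range. In the IgG libraries the order was Foxo3, Klf6, Tcf7, Klf13, Foxo1, Lef1, Foxp1, Klf10, Klf2 and Klf3, from a mean of 111 to 1.18 FPKM. Foxo3 and Klf6, and Foxp1 and Klf10, overlapped as neighbors in this order. With anti–VEGF-B it was Foxo3, Klf6, Klf13, Tcf7, Foxo1, Foxp1, Lef1, Klf2, Klf10 and Klf3, from 126 to 0.592 FPKM, with overlap between Tcf7 and Foxo1 and between Klf2 and Klf10. Thus Klf13 passed Tcf7, Foxp1 passed Lef1 and Klf2 passed Klf10. The IgG means of Foxo3 and Klf6 lay above those of 97.1% and 97.0% of listed genes, that of Klf2 above 64.7% and that of Klf3 above 20.8%. The spread within a group was also shared between genes. Among the anti–VEGF-B libraries, replicate 3 was the lowest for 7 members and the highest for none, while replicate 2 was the highest for Klf6, Klf13, Foxo1, Foxo3 and Foxp1 and the lowest for none. IgG replicate 2 was the highest IgG library for Klf2, Klf10 and Lef1 and the lowest for Klf6, Foxo1 and Foxo3.

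Genes of the same families were taken from a list written by hand, of which 12 of 16 KLF and SP genes were analysed and 11 passed the filter. Of these, 2 were called lower and 3 higher, where 23.8% and 4.87% of all tested genes were, with a median log2 fold change of -0.088 (0.11 after median centring). Klf7, which is lowered as naive T cells are activated, fell from 20.7 ± 3.72 to 11.6 ± 0.859 FPKM (-0.76 on the log2 scale, limma adjusted p = 0.00681). In single libraries it was at 11.8, 12.4 and 10.7 FPKM with anti–VEGF-B, against 17.0, 24.4 and 20.6 with IgG. Klf4, which can halt T cell proliferation, rose from 29.7 ± 4.22 to 40.3 ± 2.34 FPKM (0.44, limma adjusted p = 0.0182), and Klf5 rose from 2.52 ± 0.411 to 4.30 ± 0.156 (0.60, limma adjusted p = 0.00925). Klf7 and Klf5 were called under all 4 other scalings and in every fit that left out 1 library, while Klf4 was lost without anti–VEGF-B replicate 2 or 3 (adjusted p up to 0.0567 from limma). Klf11, the close relative of Klf10, rose by 0.38 (limma adjusted p = 0.0366). Its call was kept under all 4 other scalings but in only 1 fit that left out 1 library (limma adjusted p up to 0.113). Klf16 fell by 0.24 (limma adjusted p = 0.0468), a call kept under no other scaling and in no fit that left out 1 library (up to 0.759). Klf9 (-0.25), Sp1 (-0.11), Sp4 (0.13), Sp3 (0.067), Sp2 (-0.13) and Klf1 (-0.088) did not pass. Of 7 other FOXO, FOXP and TCF/LEF genes, 3 passed the filter. Besides Foxo4, these were Foxp4 (-0.25, limma adjusted p = 0.0672) and Tcf7l1 (0.40, adjusted p = 0.0755), the latter called after quantile normalization, cyclic loess and median centring (0.60 to 0.62, adjusted p from 0.0236 to 0.208 over the alternatives).

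Of 8 tested genes of T cell homing and survival known to respond to KLF2 or FOXO1, which are receptor genes and Bcl2, all 8 had a log2 fold change below 0, as did 71.2% of all tested genes. By limma 4 were called lower and 0 higher (23.8% and 4.87% of all tested genes). Under each of the 4 other scalings 2 were lower, beside 807 to 1309 of all 8816 tested genes. At an unadjusted p under 0.05 limma gave 6 lower and 0 higher, but the share of all tested genes at this looser threshold was not counted. The median was -0.34 (-0.14 after median centring), against -0.15 for all tested genes. After quantile normalization and cyclic loess all 8 were below 0 (48.9% and 49.7% of all tested genes), with medians of -0.25 and -0.26. After median centring or scaling to Actb, 6 of the 8 were below 0 (43.1% and 63.7% of all tested genes). Without IgG replicate 2 or 3, 7 were (68.2% and 71.5%). Ccr7, the receptor that guides T cells into lymph nodes, was at 96.6, 84.6 and 68.1 FPKM with anti–VEGF-B, against 143, 198 and 139 with IgG (-0.93 on the log2 scale, limma adjusted p = 0.00714). Bcl2, which opposes apoptosis, was at 15.1, 13.9 and 11.2 FPKM against 22.2, 35.4 and 25.0 (-0.97, limma adjusted p = 0.00731). For both genes every anti–VEGF-B library was under every IgG library, and both were called under all 4 other scalings and without any 1 library. Il7r, the IL-7 receptor gene that FOXO1 activates, fell by 0.32 and S1pr1 by 0.36 (limma adjusted p = 0.0460 for each). Neither call was kept under another scaling, nor in the fits that left out 1 library other than that without IgG replicate 1 (up to 0.310 and 0.356 over the alternatives). S1pr4 had -0.31 (limma adjusted p = 0.0572).

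Among 22 tested FOXO target genes, 8 were called lower, 2 higher and 12 neither (all tested genes, 23.8% lower and 4.87% higher), with a median log2 fold change of -0.17 (0.033 after median centring). Txnip, an inhibitor of thioredoxin and of glucose uptake, fell most, from 65.3 ± 17.0 to 21.0 ± 5.84 FPKM (-1.59 on the log2 scale, limma adjusted p = 0.00488). Pmaip1, which encodes the BH3-only protein NOXA, fell by 0.98 (limma adjusted p = 0.00469), and Sesn2 and Sesn1, of the stress-induced sestrins, by 0.70 (0.00711) and 0.41 (0.0160). In contrast, Bcl2l11, the gene of the proapoptotic protein BIM, rose from 12.7 ± 1.68 to 17.5 ± 0.705 FPKM (0.44, limma adjusted p = 0.0166). The other rise was that of Ccng2, the cyclin G2 gene (0.28, limma adjusted p = 0.0199). Both rises were called under all 4 other scalings but not without anti–VEGF-B replicate 3 (up to 0.0617 and 0.0823), and Ccng2 not without IgG replicate 2 either. Sesn1 was called under no other scaling (up to 0.121). Cdkn1b, the p27 inhibitor of the cell cycle, had -0.15 (limma adjusted p = 0.247) and was positive after median centring. After median centring, 3 of the 22 genes were lower and 3 higher (807 and 1365 of all 8816 tested genes). Without anti–VEGF-B replicate 3, 3 were called lower, beside 695 of all 8816 tested genes.

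The RNA of proteins that control FOXO factors was tested for 29 genes, of which 9 were called lower and 1 higher, beside 23.8% and 4.87% of all tested genes (median -0.19, and 0.0069 after median centring). Akt1, the kinase gene, fell from 11.5 ± 2.68 to 5.94 ± 1.16 FPKM (-0.84 on the log2 scale, limma adjusted p = 0.0102), and Sirt1, a deacetylase gene, from 8.40 ± 0.644 to 5.19 ± 0.801 (-0.61, limma adjusted p = 0.00903). Ywhab, of the 14-3-3 proteins that hold phosphorylated FOXO in the cytoplasm, fell by 0.46 (limma adjusted p = 0.0119). These 3 were called under every other scaling and without any 1 library. The exportin gene Xpo1 fell by 0.35 (limma adjusted p = 0.00996), but not past the test after median centring or when scaled to Actb (up to 0.183). Pik3r5, of the PI3Kγ complex, fell by 0.69 (limma adjusted p = 0.0136, 0.0516 without anti–VEGF-B replicate 3). The 1 rise was that of Pik3r1 (0.28, limma adjusted p = 0.0428), which encodes the p85α subunit and was lost in 5 of the 6 fits that left out 1 library (0.0139 to 0.123 over the alternatives). After median centring 6 of the 29 were lower and 5 higher (807 and 1365 of all 8816 tested genes). Without anti–VEGF-B replicate 3, 4 were called lower (695 of all 8816).

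For TCF/LEF partners and WNT feedback genes, 6 of 18 tested were called lower and 0 higher by limma, beside 23.8% and 4.87% of all tested genes. The median log2 fold change was -0.10 (0.099 after median centring). At an unadjusted p under 0.05, limma gave 6 lower and 1 higher, and the share of all tested genes at that threshold was not counted. Ctnnb1, the gene of β-catenin, was at 30.5 ± 4.23 FPKM with anti–VEGF-B, against 30.9 ± 2.51 with IgG (-0.023, limma adjusted p = 0.888), and was above 0 under all 4 other scalings. Apc, of the complex that degrades β-catenin, fell from 4.64 ± 0.417 to 1.79 ± 0.578 FPKM (-1.03, limma adjusted p = 0.00491), and Pygo2, a coactivator gene, from 4.85 ± 1.10 to 1.65 ± 0.976 (-1.21, limma adjusted p = 0.0147). Both were called under every other scaling and without any 1 library. Gsk3a (-0.33, adjusted p = 0.0224), Aes (-0.39, 0.0241) and Tle4 (-0.43, 0.0244 from limma), the last 2 of the Groucho corepressor group, were lost after median centring and without anti–VEGF-B replicate 3 (up to 0.212). Under median centring 2 of the 18 were lower and 4 higher (807 and 1365 of all 8816 tested genes). Without anti–VEGF-B replicate 3, 2 were called lower (695 of all 8816).

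Of 13 genes of the TGF-β pathway, in which KLF10 is an early target, 2 were called lower and 1 higher. Of all tested genes, 23.8% and 4.87% were. The median log2 fold change of the 13 was 0.026 (-0.012 without IgG replicate 1, and 0.23 after median centring). Furin, whose product cleaves the TGF-β precursor, fell from 22.5 ± 4.01 to 13.5 ± 2.47 FPKM (-0.70, limma adjusted p = 0.0126), under every other scaling and without any 1 library. Tgfbr1 fell by 0.30 (limma adjusted p = 0.0326) and Ltbp3 rose by 0.32 (0.0419), but each lost its call without anti–VEGF-B replicate 3, among other fits. Tgfb1 had -0.40 (limma adjusted p = 0.0588) and Smad4 0.16 (0.123), the former called only without IgG replicate 3 (0.0437, with 0.0437 to 0.230 over the alternatives) and the latter only after median centring (0.0209, with 0.0209 to 0.328). After median centring 7 of the 13 genes were higher and 1 lower, beside 1365 higher and 807 lower of all 8816 tested genes.

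Among 23 other genes tied to quiescence or stemness, 6 were called lower and 2 higher, beside 23.8% and 4.87% of all tested genes. With FPKM as deposited their median log2 fold change was -0.15, equal to that of all tested genes to 2 decimals. After quantile normalization 6 were lower and 2 higher (913 and 880 of all 8816 tested genes), with a median of -0.051. After cyclic loess 6 were lower and 3 higher (938 and 852), with a median of -0.086. After median centring 4 were lower and 4 higher (807 and 1365), with a median of 0.056. Slfn2, a schlafen gene needed to keep T cells quiescent, fell from 57.9 ± 10.97 to 27.8 ± 5.03 FPKM (-1.03, limma adjusted p = 0.00512). The antiproliferative genes Tob2 (-0.71, adjusted p = 0.00491), Tob1 (-0.36, 0.0106) and Btg2 (-0.60, 0.0115 from limma) fell too, as did Gfi1 (-0.79, limma adjusted p = 0.00657), a repressor gene. The rises were those of Btg1 (0.33, limma adjusted p = 0.0155), of the same family as Btg2, and Zfp36l2 (0.34, 0.0170), which encodes an mRNA decay factor. Its paralog Zfp36l1 fell (-0.63, limma adjusted p = 0.0169) and lost its call after median centring (0.0917, with 0.0239 to 0.0917 over the alternatives). Btg1 and Zfp36l2 were lost without anti–VEGF-B replicate 3 (up to 0.0613 and 0.0614 over the alternatives), Btg1 also after quantile normalization, and Tob1 after median centring or scaling to Actb (up to 0.168). Bach2, which holds T cells in a stem-like state, was at 21.4 ± 2.74 FPKM with anti–VEGF-B, against 21.8 ± 3.18 with IgG (-0.019, limma adjusted p = 0.915). Its sign was positive under all 4 other scalings. None of the genes called in these lists changed direction under another scaling or without 1 library.

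**Figure D4:**
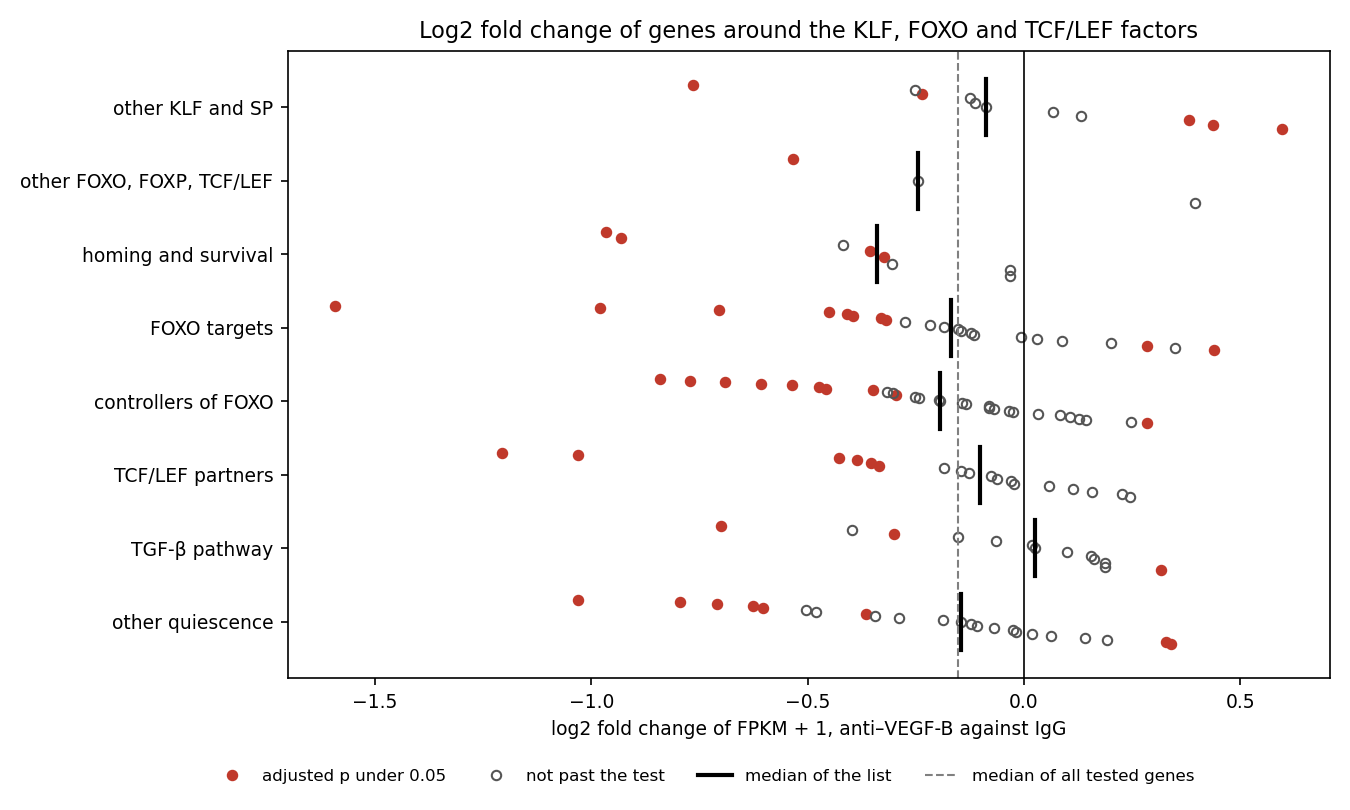
Log2 fold change of FPKM + 1 between anti–VEGF-B and IgG (horizontal axis) for the tested genes of 8 lists (rows), filled where the adjusted p from limma was under 0.05; short bars are list medians and the dashed line the median of all tested genes. With FPKM as deposited, the 8 homing and survival genes lie below 0. The same holds after quantile normalization and cyclic loess, and for 6 of 8 after median centring or scaling to Actb. As deposited, the TGF-β list alone has a median above 0 (0.026, and -0.012 without IgG replicate 1). After median centring it was 0.23, and other lists had medians above 0 too (such as 0.11 for KLF and SP genes).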

How the data were processed

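Stranded libraries were aligned by the authors to GRCm38 (mm10) with hisat2 and quantified with StringTie and Ballgown, and the authors deposited 1 value per protein-coding gene and library. The deposited table names no unit and is titled as raw, but its values above 0 are not whole numbers, so they were read as FPKM and no count model was used. No normalization between libraries is stated. All 6 columns were matched to samples by their labels. FPKM carry no depth, and at most 0.935% of low values shared a ratio between a pair of libraries, so whole reads were not recovered.

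Genes averaging 1 FPKM or more (8816) were kept, and log2(FPKM + 1) was modeled in limma 3.58.1 (R 4.3.3, empirical Bayes with trend) over the 6 libraries with no covariate. The members and the lists were chosen with earlier results of these data known. All members are named, and from each list the 5 genes with the lowest p, further family members, and Ccr7, S1pr1, Il7r, Cdkn1b, Bcl2l11, Txnip, Bach2, Ctnnb1 and Cd4. Another gene of this rule is not reported here. Ccng2, Pik3r1, Btg1, Zfp36l1, Zfp36l2 and markers were named after their values were seen. Alternatives changed the scaling, filter, pseudocount, moderation, threshold, replicate block and libraries included. For list genes, only scaling and leaving out a library were run. A fit without 1 library assumes that the group left with 2 varies like the other. The method was tested on simulated data.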

Additional observations from a re-analysis of the deposited data

How the results depend on the processing

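The counts of members called lower and higher were 3 and 2. In limma with no moderation of the variance they were 0 and 0 (3 and 3 at an unadjusted p under 0.05, where all tested genes were not counted). They were 1 and 4 after median centring, and 1 and 0 where calls required a log2 fold change beyond 0.5 in size and p under 0.05 before adjustment. Leaving out each library gave 2 to 3 lower and 1 to 2 higher members, with 1 higher (Foxo1) without anti–VEGF-B replicate 3. Over all tested genes, 2099 were lower and 429 higher. These counts became 913 and 880 (quantile normalization), 938 and 852 (cyclic loess), 807 and 1365 after median centring, 6 and 6 with no moderation, and 998 and 123 at the unadjusted threshold. When scaled to Actb 1309 were lower, and with a mean of at least 5 FPKM 989. They ran from 695 to 2071 lower and from 164 to 396 higher when a library was left out, lowest without anti–VEGF-B replicate 3, with 1101 and 258 without IgG replicate 2 and 1367 lower without anti–VEGF-B replicate 1. The log2 fold change of Klf2 turned positive after quantile normalization (0.076), cyclic loess (0.070), median centring (0.10) and without IgG replicate 2 (0.0081, the highest of -0.19 to 0.0081 when a library was left out), and that of Klf6 after median centring (0.12). No other member changed direction. With 1 FPKM added to both genes, the difference in the log2 ratio of Klf2 to Klf3 was 0.35 instead of 0.88, as the addition compresses the low values of Klf3. The other 4 ratios moved by less than the spread between replicates under all alternatives run. Libraries with the same number shared no origin in the labels and did not deviate together (correlations of -0.030, 0.11 and 0.089), and with the number as a replicate block 3 members were lower and 2 higher, among 2109 and 469 genes. The cause of these changes was not tested. The depth of the libraries is unknown, so the counting error of genes near 1 FPKM, such as Klf3, cannot be given.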
